A study of Homo sapiens with 6 samples.

Results

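The proteasome genes described here are the 44 genes whose symbol is PSM, a letter from A to G and a number, among 33616 genes tested on the arrays. A gene was taken where a probe set carried that symbol alone, and where a gene had several such probe sets, as 6 of the 44 did, the brightest over all 6 arrays stood for it. RefSeq holds 48 genes whose symbols meet the rule. Of the other 4, PSME2 shares its probe set with the microRNA gene MIR7703 and is given no value, and PSMC5, PSMD7 and PSMD13 were not analysed here. The cells were LN229R, a line made from the GBM line LN229 by resistance to TMZ, although the sample labels name the line LN229. The 3 ATRX NC arrays were labelled ATRX wild type and the 3 ATRX KO arrays ATRX knockout. Cells of both groups carried CAS9 and had been selected with puromycin for 7 days, at a concentration that the labels and the methods state in different units, and were then infected for 24 hours, ATRX NC cells with a virus for a non-targeting sgRNA and ATRX KO cells with a virus for sgRNAs against ATRX, a chromatin remodeler. The sources name neither clones nor pools and do not say whether replicates were separate cultures, so each p-value covers the spread between arrays alone, which may be technical.

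All values are log2 intensities, so that a difference of 1 is a doubling, and a call of higher or lower in ATRX KO cells means an adjusted p below 0.05 by limma over all genes. The targeted gene ATRX averaged 10.28 ± 0.18 (SD, n = 3) over the ATRX NC arrays and 8.63 ± 0.14 (SD, n = 3) over the ATRX KO arrays (adjusted p = 0.000561, limma). Over all genes, 1947 were called higher and 1251 lower, a split that became 1494 and 1574 after quantile normalization over the tested genes, 1461 and 1605 after median centring, and 1509 and 1555 after cyclic loess. The median log2 fold change over all genes was 0.07. Some markers of the line itself changed. Of 9 markers of glioma lines, 2 were called higher, 22.2% beside 5.79% of all genes tested, and 2 lower, beside 3.72%. S100B fell by 2.93 (adjusted p = 3.36e-05, limma) and NES by 1.02 (adjusted p = 0.00482, limma). EGFR rose by 0.94 (adjusted p = 0.00720, limma) and SOX9 by 0.996 (adjusted p = 0.0342, limma). The other 5 did not pass, among them GFAP and OLIG2, which lay below the median level of all genes, 6.10. The SOX9 call ended when replicate 2 or 3 of either group was dropped (adjusted p = 0.0690 to 0.105, limma). The summed level of the list, set mainly by VIM at 17.05 ± 0.13 (SD, n = 3) and 17.08 ± 0.03 (SD, n = 3), was 17.37 to 17.59 on the ATRX NC arrays and 17.31 to 17.39 on the ATRX KO arrays. The array gives no detection call. Probes differ in brightness, so levels are not set against each other between genes, apart from placing a gene against the level of all genes and summing the marker lists. Those sums add intensities over genes and weigh bright probes most.

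The proteasome is the barrel-shaped protease that degrades proteins tagged with ubiquitin. Its core is built of stacked rings of alpha subunits (PSMA genes) and beta subunits (PSMB genes), of which PSMB5, PSMB6 and PSMB7 carry the cutting sites, and its cap of ATPases (PSMC genes) and other subunits (PSMD genes) recognises, unfolds and feeds in the substrates. In cells exposed to interferon, PSMB8, PSMB9 and PSMB10 are made and take the places of PSMB5, PSMB6 and PSMB7 in newly built cores, the immunoproteasome, which favours peptides that fit HLA class I molecules, and PSME1 and PSME2 form PA28, a ring that opens the core without the cap.

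Start-site sequences of the inducible genes are shown because interferon-responsive transcription factors of the IRF and STAT families bind the interferon-stimulated response element (ISRE), searched as GAAANNGAAA on both strands in RefSeq windows (GRCh38.p14) of 250 bases before to 50 after each start. The ISRE letters were found at PSMB8 (chr6:32843998-32844297, minus strand, 1 of its 2 windows), PSMB10 (chr16:67936801-67937100, minus strand) and PSME1 (chr14:24135944-24136243, plus strand), and capitals mark the match, which in PSMB8 and PSME1 lies on the other strand.
PSMB8: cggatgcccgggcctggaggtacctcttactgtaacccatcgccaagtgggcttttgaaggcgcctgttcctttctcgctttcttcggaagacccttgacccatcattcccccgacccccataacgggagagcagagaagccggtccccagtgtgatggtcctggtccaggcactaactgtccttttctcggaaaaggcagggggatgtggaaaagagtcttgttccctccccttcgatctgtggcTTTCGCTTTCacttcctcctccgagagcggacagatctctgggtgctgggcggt
PSMB10: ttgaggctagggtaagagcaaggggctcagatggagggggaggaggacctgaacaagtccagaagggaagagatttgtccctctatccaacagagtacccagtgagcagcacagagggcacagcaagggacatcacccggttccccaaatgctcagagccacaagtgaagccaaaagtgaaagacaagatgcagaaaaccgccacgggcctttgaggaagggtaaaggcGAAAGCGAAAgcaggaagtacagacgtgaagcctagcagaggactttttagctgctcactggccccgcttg
PSME1: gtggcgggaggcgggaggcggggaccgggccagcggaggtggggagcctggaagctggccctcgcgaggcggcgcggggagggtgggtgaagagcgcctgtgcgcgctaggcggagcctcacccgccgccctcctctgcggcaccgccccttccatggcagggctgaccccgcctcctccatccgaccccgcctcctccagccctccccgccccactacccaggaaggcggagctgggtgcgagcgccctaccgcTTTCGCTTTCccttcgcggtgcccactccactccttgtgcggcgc
PSMB9 held no match in its own window (chr6:32853942-32854241, plus strand). Its start lies head to head with that of TAP1, a subunit of the peptide transporter, whose window (chr6:32853655-32853954, minus strand, 1 of its 2 windows) held 2 overlapping matches, 354 to 369 bases from the PSMB9 start, again in capitals.
PSMB9: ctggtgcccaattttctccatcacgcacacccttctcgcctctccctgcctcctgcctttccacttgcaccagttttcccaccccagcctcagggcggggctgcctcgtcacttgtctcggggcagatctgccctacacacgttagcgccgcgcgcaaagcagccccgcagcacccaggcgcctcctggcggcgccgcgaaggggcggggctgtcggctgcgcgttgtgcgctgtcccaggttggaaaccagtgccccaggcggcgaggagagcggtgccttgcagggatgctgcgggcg
TAP1: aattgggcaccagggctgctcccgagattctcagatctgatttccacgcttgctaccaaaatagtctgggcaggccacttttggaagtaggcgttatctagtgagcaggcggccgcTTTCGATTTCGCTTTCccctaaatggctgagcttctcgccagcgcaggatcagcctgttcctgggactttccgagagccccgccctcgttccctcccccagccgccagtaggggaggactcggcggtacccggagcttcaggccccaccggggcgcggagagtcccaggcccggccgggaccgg
The letters occurred in 4.38% of the 27305 genes with a window, in 3 of the 4 inducible genes measured, in 2 of the 23 core and cap genes with a window (PSMA4 and PSMB4), and in 1 of the 6 assembly chaperones, PSMG4. PSMD14, whose window (chr2:161308175-161308474, plus strand) stands for the constitutive genes, had 2 overlapping matches to CCAAT, the letters bound by NF-Y, shown in capitals on both strands.
PSMD14: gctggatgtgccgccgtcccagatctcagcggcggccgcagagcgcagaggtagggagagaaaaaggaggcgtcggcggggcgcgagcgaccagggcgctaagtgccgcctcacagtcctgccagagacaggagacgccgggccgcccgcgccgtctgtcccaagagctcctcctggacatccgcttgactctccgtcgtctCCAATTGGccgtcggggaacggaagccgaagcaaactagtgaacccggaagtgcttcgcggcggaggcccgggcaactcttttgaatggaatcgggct
CCAAT was found in 13 of the 23 core and cap genes, 1 of the 4 inducible genes, 2 of the 6 assembly chaperones and 39.7% of all genes, and the antioxidant response element TGACNNNGC, bound by NFE2L1 and NFE2L2, in 6 of the 23, in 2 of the 4 inducible genes, in 4 of the 6 assembly chaperones and in 16.1% of all genes. The STAT element TTCNNNGAA was found in 5 of the 23, in 1 of the 4 inducible genes (PSMB8), in 0 of the 6 chaperones and in 9.38% of all genes. A match is a run of letters and not a site shown to be bound.

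Of the 44 proteasome genes, 25 were higher in ATRX KO cells, 1 was lower (PSMG4) and 18 did not pass. Over all genes, 5.79% were called higher and 3.72% lower, and among the 6392 genes with a mean log2 level above 10, where most proteasome genes lay, the shares were 12.7% and 8.71%. The median log2 fold change of the 44 genes was 0.62, from -0.66 for PSMG4 to 2.17 for PSMB8, against 0.07 over all genes. All 3 ATRX KO arrays lay above all 3 ATRX NC arrays in 34 of the 44 genes, against 19.0% of all genes and 36.2% of those above a level of 10, and below them in 2 (PSMG4 and PSME4), against 11.2% of all genes. The plot of levels by array shows each gene, ordered by its place in the complex.

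**Figure D1:**
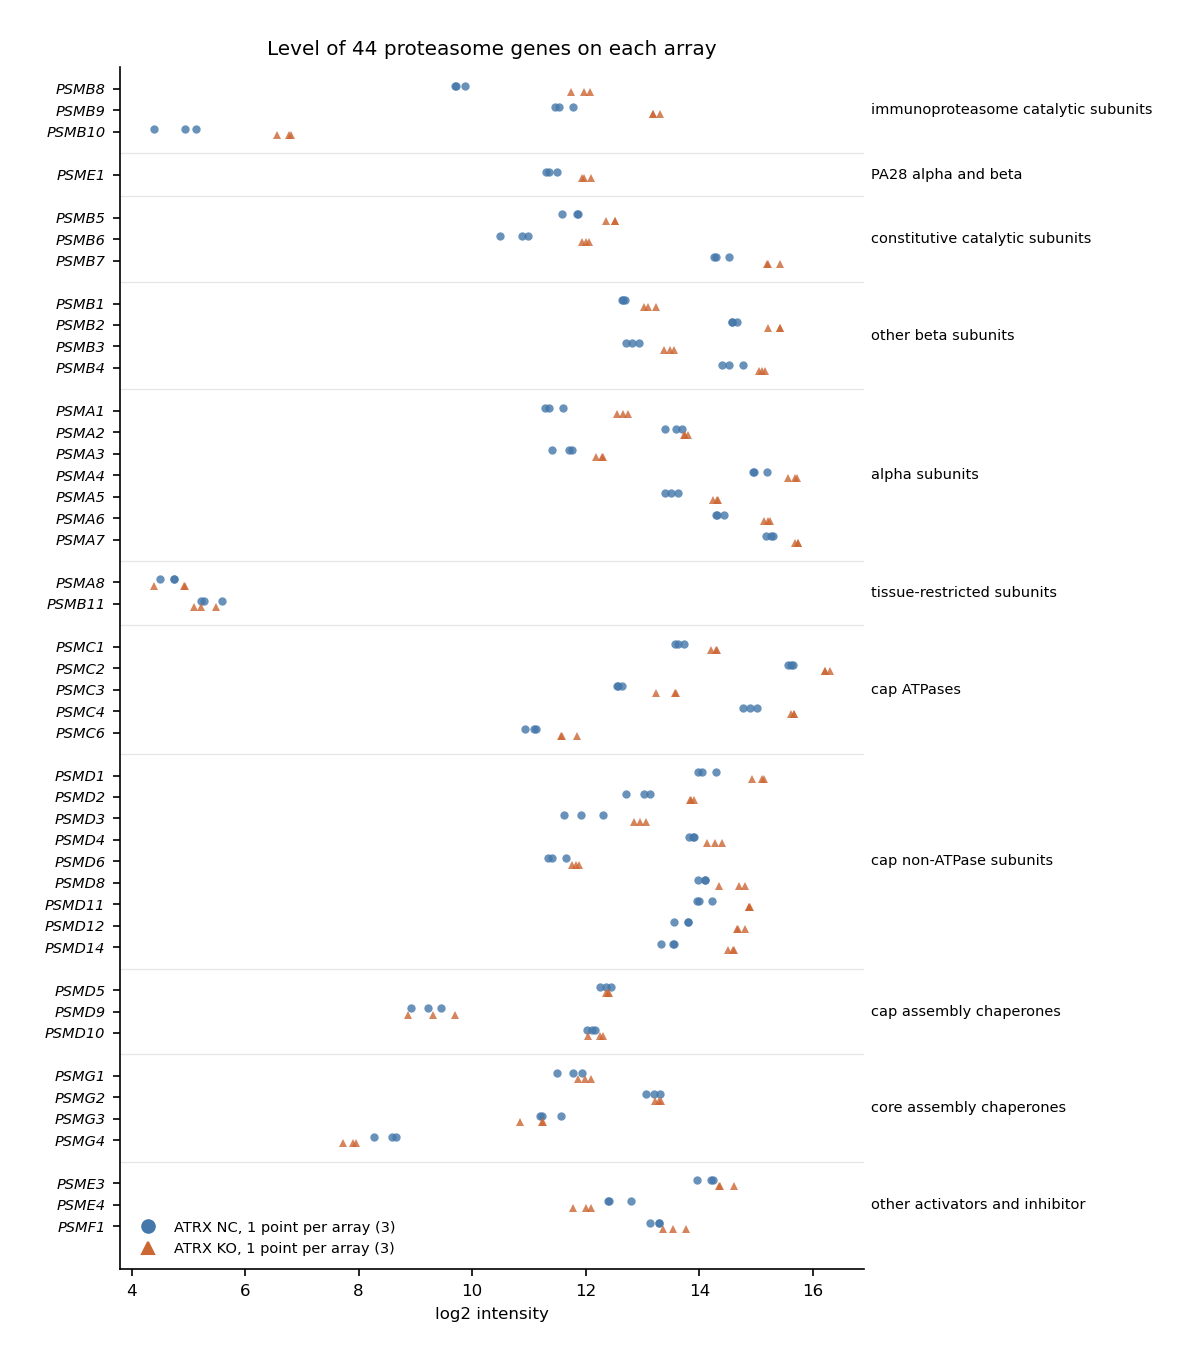
Log2 intensity (x axis) of the 44 proteasome genes (y axis, grouped by role) on each of the 3 ATRX NC arrays (circles) and 3 ATRX KO arrays (triangles), 1 point per array. The immunoproteasome genes PSMB8, PSMB9 and PSMB10 have the widest gaps between the groups, the core and cap genes smaller gaps in the same direction, and the assembly chaperones overlap except PSMG4.

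The inducible catalytic subunits had the 3 largest fold changes of the 44 genes. PSMB8, which replaces the chymotrypsin-like subunit (chr6:32840717-32844679), was at 9.69, 9.72 and 9.88 on the ATRX NC arrays and at 11.74, 12.08 and 11.97 on the ATRX KO arrays. It rose 4.49-fold, by 2.17 on the log2 scale (SE 0.16, adjusted p = 0.000124, limma), and the groups lay far apart against the spread within each. In bulk RNA, more cells with a transcript and more of it per cell cannot be told apart. PSMB9, which replaces the caspase-like subunit (chr6:32854192-32859851), was at 11.53, 11.77 and 11.46 and at 13.19, 13.18 and 13.32. It rose 3.12-fold, by 1.64 (SE 0.15, adjusted p = 0.000403, limma), again with no overlap. PSMB10, which replaces the trypsin-like subunit (chr16:67934506-67936850), was at 4.94, 4.39 and 5.13 and at 6.78, 6.57 and 6.81. It rose 3.73-fold, by 1.90 (SE 0.21, adjusted p = 0.00104, limma), and every ATRX NC array lay under the median of all genes, a range in which the size of a change is uncertain because no background value was given. All 3 passed in each of the 16 alternatives run, with a highest adjusted p of 0.0325, that of PSMB10. The alternative of genes above the median level took each gene whose mean in either group lay above it. It held PSMB10 only through ATRX KO, where the gene was high, so that pass adds no support.

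PSME1, the alpha subunit of the PA28 ring (chr14:24136194-24138962), was at 11.49, 11.30 and 11.36 on the ATRX NC arrays and at 11.97, 11.94 and 12.10 on the ATRX KO arrays. The groups did not overlap, and it rose 1.54-fold, by 0.62 (SE 0.14, adjusted p = 0.0326, limma). The call did not survive the loss of any single array, at adjusted p-values of 0.0553 to 0.111 from limma, and in all 3 other scalings, where the fold change was 0.52 to 0.54.

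The constitutive counterparts rose as well, by less. PSMB5, the constitutive chymotrypsin-like subunit, was at 11.58, 11.85 and 11.86 on the ATRX NC arrays and at 12.51, 12.35 and 12.51 on the ATRX KO arrays, a rise of 0.69 (SE 0.15, adjusted p = 0.0270, limma). The groups were separate, but the call was lost without any 1 of the 6 arrays (adjusted p = 0.0543 to 0.0945, limma). PSMB6, the caspase-like subunit, was at 10.98, 10.88 and 10.49 and at 12.004, 11.94 and 12.06, a rise of 1.22 (SE 0.17, adjusted p = 0.00358, limma). PSMB7, the trypsin-like subunit, was at 14.26, 14.29 and 14.52 and at 15.43, 15.19 and 15.21, a rise of 0.92 (SE 0.15, adjusted p = 0.00849, limma). Both lay apart in all arrays and passed in every alternative.

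Within each array the inducible subunit was set against the subunit it replaces, and the mean difference was compared between the groups over 4 pairs. A constant shift of all log2 values of an array cancels in this difference, but a shift that depends on the level does not. PSMB8 gained 1.48 on the log2 scale over PSMB5, PSMB10 gained 0.98 over PSMB7, and PSMB9 gained 0.42 over PSMB6. The gain of PSMB10 was 1.05 after quantile normalization again. It rests on ATRX NC values under the median of all genes, where the size of a change is uncertain. In each of these 3 pairs the 3 ATRX KO arrays lay above the 3 ATRX NC arrays, which gives p = 0.1 in a two-sided exact permutation test, the smallest p that 3 against 3 arrays allow, and 0.133 after adjustment over the 4 pairs. PSME1 gained 0.31 over PSME3, the nuclear member of the PA28 family, with overlapping groups (exact permutation p = 0.2, adjusted p = 0.2). These groups no longer overlapped after quantile normalization again, at a gain of 0.34 (exact permutation p = 0.1). In the deposited values, leaving out each array in turn gave gains of 1.35 to 1.60 for PSMB8 and 0.80 to 1.09 for PSMB10. The gains were 0.30 to 0.51 for PSMB9 and 0.24 to 0.45 for PSME1. Of the 3 catalytic pairs PSMB9 and PSMB6 differed least, and PSMB6 had the largest rise of the constitutive catalytic subunits. The pairs were not tested against each other.

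**Figure D2:**
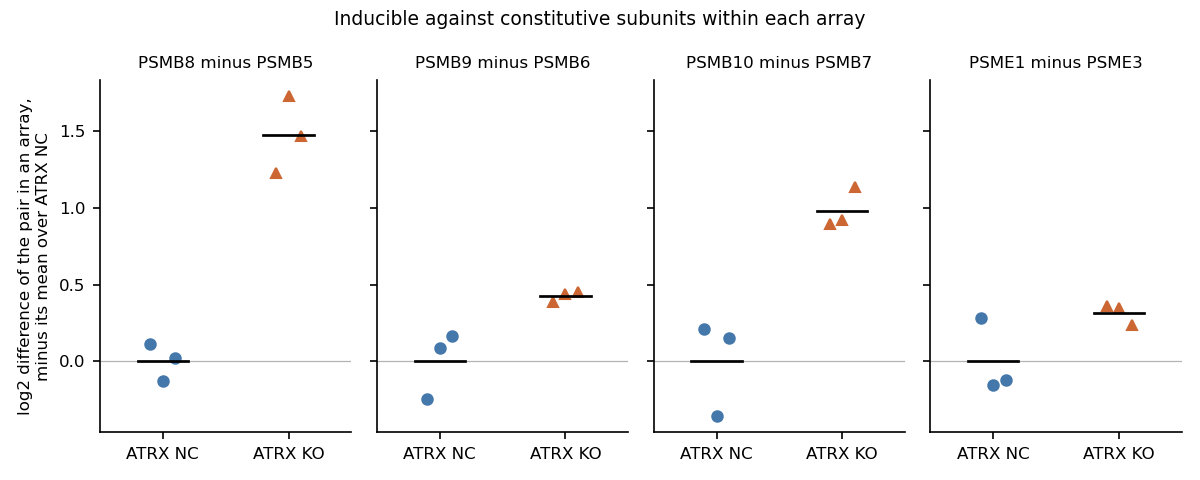
Log2 difference between the 2 genes of a pair within each array, minus its mean over the ATRX NC arrays (y axis), for 3 ATRX NC and 3 ATRX KO arrays (x axis), 1 point per array and 1 panel per pair. The ATRX KO arrays lie above the ATRX NC arrays in the 3 catalytic pairs, by 1.48, 0.42 and 0.98, and the groups overlap for PSME1 and PSME3.

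The structural core rose broadly. All 14 constitutive core genes measured had every ATRX KO array above every ATRX NC array, and 10 passed the test, with a median log2 fold change of 0.67 (0.21 to 1.24). Of the 7 alpha subunits, which form the gated outer rings, 5 rose. PSMA1 was at 11.28, 11.35 and 11.60 on the ATRX NC arrays and at 12.75, 12.56 and 12.65 on the ATRX KO arrays, a rise of 1.24 (SE 0.15, adjusted p = 0.00191, limma), the largest among core and cap genes. PSMA6 was at 14.30, 14.32 and 14.43 and at 15.25, 15.14 and 15.22, a rise of 0.85 (SE 0.14, adjusted p = 0.00703, limma). PSMA5 was at 13.40, 13.62 and 13.51 and at 14.31, 14.25 and 14.33, a rise of 0.79 (SE 0.14, adjusted p = 0.0115, limma). These 3 genes passed in all 16 alternatives. PSMA3 and PSMA4 rose by 0.63 and 0.62, and PSMA7 (0.48, adjusted p = 0.0657, limma) and PSMA2 (0.21, adjusted p = 0.447, limma) did not pass.

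Of the 4 beta subunits without a cutting site, PSMB2 and PSMB3 rose. PSMB2 was at 14.58, 14.67 and 14.58 on the ATRX NC arrays and at 15.21, 15.42 and 15.42 on the ATRX KO arrays, a rise of 0.74 (SE 0.14, adjusted p = 0.0157, limma). Dropping ATRX NC replicate 3, ATRX KO replicate 2 or ATRX KO replicate 3 ended its call, at adjusted p-values of 0.0539, 0.0548 and 0.0629 from limma. So did the mean over its 2 probe sets, with a fold change of 0.36 (adjusted p = 0.264, limma), and the other, dim probe set differed by -0.01. PSMB3 rose by 0.65, and PSMB1 (0.46, adjusted p = 0.0832, limma) and PSMB4 (0.54, adjusted p = 0.0701, limma) did not pass. The subunits known from other tissues, PSMA8 of the testis and PSMB11 of the thymus, stayed between 4.40 and 5.59 on all arrays with overlapping groups.

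The cap moved with the core. All 14 cap genes measured lay apart in the same direction and 11 passed, with a median of 0.78 (0.36 to 1.10), so that of the 28 core and cap genes 21 were called higher and 27 had an unadjusted p under 0.05. All 5 ATPases measured rose, by 0.61 to 0.88. PSMC3 was at 12.56, 12.55 and 12.65 on the ATRX NC arrays and at 13.58, 13.25 and 13.56 on the ATRX KO arrays, a rise of 0.88 (SE 0.16, adjusted p = 0.0107, limma). PSMC4 was at 14.90, 14.77 and 15.02 and at 15.66, 15.62 and 15.66, a rise of 0.75 (SE 0.14, adjusted p = 0.0149, limma), a call that ended when ATRX NC replicate 2, ATRX KO replicate 1 or ATRX KO replicate 3 was dropped (adjusted p = 0.0537, 0.0584 and 0.0566, limma). That value comes from a probe set with no genome position in its name, the brightest of 7 for the gene. A probe set of PSMC4 placed on chromosome 19 went from 12.50 ± 0.10 (SD, n = 3) to 13.18 ± 0.14 (SD, n = 3), a difference of 0.69, with no overlap, and the other 5, which have no position either, differed by -0.13 to 0.35. With the mean over the 7 probe sets the fold change of PSMC4 was 0.25 and did not pass (adjusted p = 0.352, limma), and the mean over its 2 probe sets also ended the call of PSMC6 (0.68, adjusted p = 0.0678, limma).

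Of the 9 cap subunits that are not ATPases, 6 rose. PSMD14, the deubiquitinase that removes ubiquitin chains from substrates, was at 13.55, 13.54 and 13.32 on the ATRX NC arrays and at 14.60, 14.61 and 14.51 on the ATRX KO arrays, a rise of 1.10 (SE 0.15, adjusted p = 0.00259, limma). PSMD12, a scaffold subunit of the lid, was at 13.80, 13.55 and 13.81 and at 14.80, 14.66 and 14.69, a rise of 0.999 (SE 0.15, adjusted p = 0.00486, limma). PSMD11, also of the lid, was at 14.22, 13.99 and 13.97 and at 14.89, 14.87 and 14.87, a rise of 0.82 (SE 0.15, adjusted p = 0.0108, limma). The groups were separate in all 3 genes and the ATRX KO arrays lay close together. PSMD1, a large scaffold of the base that also docks the ubiquitin receptor ADRM1, was at 13.98, 14.04 and 14.30 and at 15.14, 15.10 and 14.93, a rise of 0.95 (SE 0.16, adjusted p = 0.00770, limma). PSMD2, the other large scaffold, was at 13.14, 12.71 and 13.02 and at 13.83, 13.86 and 13.91, a rise of 0.91 (SE 0.16, adjusted p = 0.0108, limma). All 5 of these genes passed in every alternative. PSMD3, a lid subunit, was at 11.62, 11.91 and 12.30 and at 13.07, 12.86 and 12.96, a rise of 1.02 (SE 0.20, adjusted p = 0.0154, limma), a call that ended when ATRX NC replicate 2, ATRX KO replicate 1 or ATRX KO replicate 3 was dropped (adjusted p = 0.0531, 0.0610 and 0.0559, limma). The ubiquitin receptor PSMD4 (0.39, adjusted p = 0.140, limma), PSMD6 (0.36, adjusted p = 0.190, limma) and PSMD8 (0.56, adjusted p = 0.0752, limma) did not pass, although their groups did not overlap.

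Fewer core and cap genes passed in the other scalings, 17 after quantile normalization, 15 after median centring and 16 after cyclic loess, with medians of 0.58, 0.62 and 0.61 in place of 0.72. Of the 26 calls among the 44 genes, 14 passed in all 16 alternatives, namely PSMB8, PSMB9 and PSMB10 and 11 core and cap genes. The limit given above for PSMB10 holds here too. PSMB3, PSMA3, PSMA4, PSMC1, PSMC2 and PSMC6 each did not pass once any single array was dropped, at adjusted p-values up to 0.145 from limma. Leaving out 1 array at a time left 14 to 17 of the 44 genes called higher, with 17 when ATRX NC replicate 1 was dropped, 16 for ATRX NC replicate 3 and for ATRX KO replicate 2, 15 for ATRX NC replicate 2 and for ATRX KO replicate 1, and 14 for ATRX KO replicate 3.

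**Figure D3:**
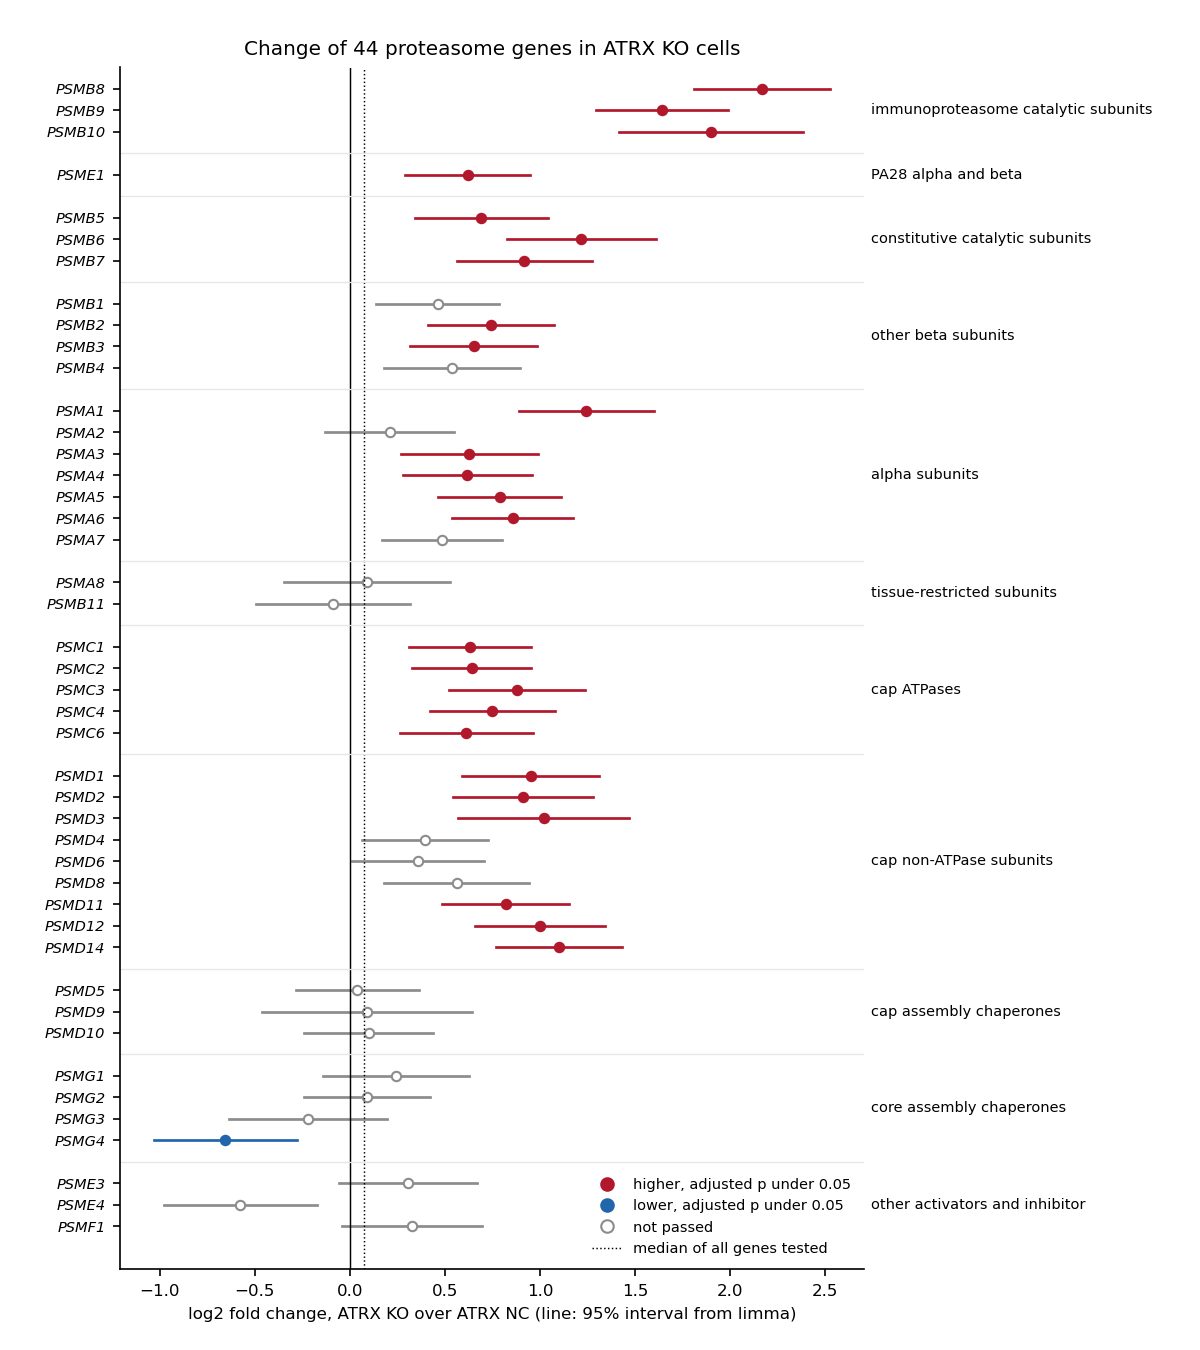
Log2 fold change of ATRX KO over ATRX NC (x axis) with its 95% interval from limma for the 44 proteasome genes (y axis, grouped by role), where filled points passed at an adjusted p under 0.05 and the dotted line is the median of all genes tested, 0.07. PSMB8, PSMB10 and PSMB9 lead at 2.17, 1.90 and 1.64, the core and cap genes run from 0.21 to 1.24, and PSMG4 is the only gene called lower.

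The 7 assembly chaperones with a PSM symbol did not follow the subunits. POMP, a chaperone of the core without such a symbol, rose by 0.56 (adjusted p = 0.0496, limma), a call lost without any 1 array and in the 3 other scalings. By limma none of the 7 was called higher, 0 of them even at an unadjusted p under 0.05 or by the methods' t-test, and their median log2 fold change was 0.09. The cap chaperones PSMD5, PSMD9 and PSMD10, which hold the ATPases until the base is built, had fold changes of 0.04, 0.09 and 0.10 with overlapping groups. Of the core chaperones, which pair up to guide the alpha ring, PSMG1 (0.24), PSMG2 (0.09) and PSMG3 (-0.22) did not pass. PSMG4 was at 8.66, 8.59 and 8.28 on the ATRX NC arrays and at 7.90, 7.72 and 7.95 on the ATRX KO arrays, without overlap. It fell by 0.66 on the log2 scale (SE 0.16, adjusted p = 0.0434, limma). Its call was lost on leaving out any array but ATRX NC replicate 3, at adjusted p-values of 0.0942 to 0.121 from limma, and held in all 3 other scalings. The other 2 PSMG4 probe sets, which were dimmer, differed by -0.17 and -0.29 with overlapping groups, and the mean over the 3 did not pass (-0.37, adjusted p = 0.324, limma). The difference between chaperones and subunits was not tested.

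The other activators and the inhibitor did not pass. PSME3, the nuclear PA28 gamma, was at 13.96, 14.21 and 14.23 on the ATRX NC arrays and at 14.36, 14.34 and 14.61 on the ATRX KO arrays (0.30, SE 0.16, adjusted p = 0.290, limma). PSME4, a single-chain activator that caps the core in nuclei, was at 12.39, 12.40 and 12.80 and at 11.77, 12.09 and 12.01, with every ATRX KO array below (-0.58, SE 0.18, adjusted p = 0.0823, limma). PSMF1, the inhibitor that binds the core, had a fold change of 0.32 (SE 0.16, adjusted p = 0.264, limma).

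**Figure D4:**
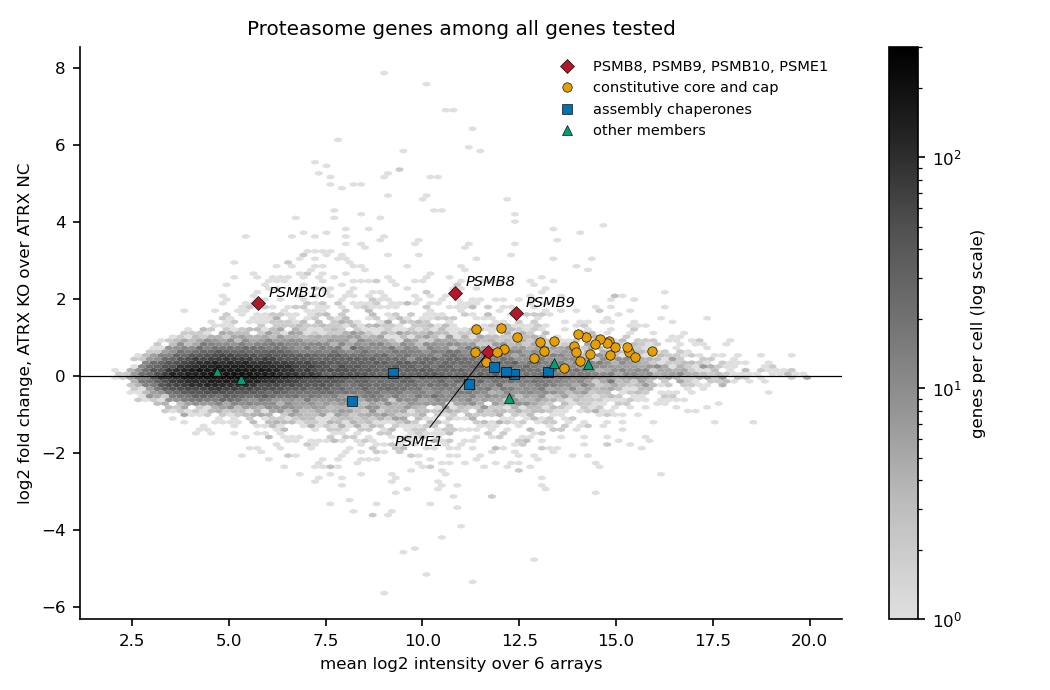
Log2 fold change of ATRX KO over ATRX NC (y axis) against mean log2 intensity over 6 arrays (x axis) for all 33616 genes (shaded cells, number of genes on a log scale) with the 44 proteasome genes as points by role. The immunoproteasome genes stand at 1.64 to 2.17, PSME1 at 0.62, and most core and cap genes lie above a level of 10 and on the positive side.

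Among 20 measured genes that work on the proteasome without a PSM symbol, 7 rose and 1 fell, with a median log2 fold change of 0.25. The share that rose was 35%, beside 5.79% of all genes tested and 12.7% of those above a level of 10. ADRM1, the ubiquitin receptor of the cap, was at 7.99, 8.08 and 8.35 on the ATRX NC arrays and at 9.42, 9.32 and 9.53 on the ATRX KO arrays, a rise of 1.28 (SE 0.16, adjusted p = 0.00191, limma). TXNL1, a thioredoxin-like protein bound to the cap, rose by 0.88 and PITHD1, which has a related domain, by 0.83. POMP, the chaperone that carries the core to maturity, rose by 0.56 (SE 0.15, adjusted p = 0.0496, limma), a call that was lost without any 1 array (adjusted p = 0.0809 to 0.145, limma) and in the 3 other scalings. FBXO7, an F-box protein that binds the inhibitor PSMF1, was at 17.33, 17.16 and 17.19 and at 16.38, 16.19 and 16.37. It fell by 0.91 (SE 0.14, adjusted p = 0.00648, limma) with no overlap.

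Of 11 measured regulators of constitutive proteasome genes, 2 rose, 18.2% beside 5.79% of all genes tested and 12.7% of those above a level of 10. None was called lower by limma, nor at an unadjusted p under 0.05 by limma or the methods' t-test. NFE2L1, the factor that raises subunit transcription when proteasome activity is short, was at 13.14, 12.97 and 13.20 on the ATRX NC arrays and at 13.70, 13.48 and 13.67 on the ATRX KO arrays, without overlap (0.52, SE 0.15, adjusted p = 0.0710, limma). KEAP1, the adaptor that keeps NFE2L2 low, rose by 1.10 (SE 0.23, adjusted p = 0.0206, limma), and NFYC, a subunit of NF-Y, by 0.68 (SE 0.14, adjusted p = 0.0187, limma). The KEAP1 call ended when ATRX NC replicate 1 or 2 or ATRX KO replicate 1 or 3 was dropped (adjusted p = 0.0595 to 0.0720, limma), and that of NFYC with ATRX NC replicate 2 or 3 or ATRX KO replicate 1 or 3 dropped (adjusted p = 0.0595 to 0.0729, limma). SYVN1, the ligase that turns NFE2L1 over at the endoplasmic reticulum, did not pass (0.53, adjusted p = 0.0847, limma).

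Of 17 measured regulators of interferon-inducible genes, 3 rose, 17.6% beside 5.79% of all genes tested and 12.7% of those above a level of 10. IRF1, which binds the ISRE, was at 6.10, 6.47 and 6.24 on the ATRX NC arrays and at 9.45, 9.21 and 9.41 on the ATRX KO arrays, a rise of 3.09 (SE 0.16, adjusted p = 2.47e-05, limma). IRF9, the DNA-binding part of the complex that acts after type I interferon, was at 8.87, 9.04 and 8.92 and at 11.23, 11.06 and 10.96, a rise of 2.14 (SE 0.15, adjusted p = 9.85e-05, limma). NFKB2 rose by 1.03 (SE 0.19, adjusted p = 0.0132, limma), a call lost without ATRX KO replicate 1 (adjusted p = 0.0531, limma). IFNGR1, a receptor chain for interferon gamma, did not pass (0.56, adjusted p = 0.0562, limma). The interferon genes IFNB1 and IFNG themselves lay below the median level of all genes in both groups, at 4.70 ± 0.18 (SD, n = 3) and 4.52 ± 0.25 (SD, n = 3) in ATRX KO cells.

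Downstream of the proteasome, 8 of 15 measured genes of peptide transport and trimming rose, 53.3% beside 5.79% of all genes tested and 12.7% of those above a level of 10. None was called lower by limma, with 1 at an unadjusted p under 0.05 both there and in the methods' t-test. TAPBPL, which edits the peptides of HLA class I, rose by 2.42 (SE 0.16, adjusted p = 7.42e-05, limma), B2M, the light chain of HLA class I, by 1.48 (SE 0.15, adjusted p = 0.000583, limma), and ERAP2, which trims peptides in the endoplasmic reticulum, by 1.13 (SE 0.16, adjusted p = 0.00417, limma). TAP1 was at 7.88, 7.81 and 7.75 on the ATRX NC arrays and at 8.93, 8.70 and 9.12 on the ATRX KO arrays, a rise of 1.10 (SE 0.16, adjusted p = 0.00426, limma). All 4 passed in every alternative. TPP2, a peptidase, did not pass in the deposited values (-0.55, adjusted p = 0.0612, limma) but was called lower in each of the 3 other scalings. Of 12 measured ubiquitin and ubiquitin-like genes, 4 rose, 33.3% beside the same shares of 5.79% and 12.7%. UBE2L6, the conjugating enzyme for ISG15, was up by 2.32 (SE 0.15, adjusted p = 7.42e-05, limma) and USP18, which removes ISG15, by 1.75 (SE 0.19, adjusted p = 0.000933, limma). The other 2, the ISG15 ligase HERC5 (0.80, adjusted p = 0.0300, limma) and the ubiquitin-activating enzyme UBA1 (0.55, adjusted p = 0.0411, limma), did not pass in any of the 3 other scalings, which left 2 of 12. UBA1 did not pass without any single array either (0.0808 to 0.123, limma), nor HERC5 without ATRX NC replicate 1 or 3 or ATRX KO replicate 1 or 2 (0.0874 to 0.103, limma). ISG15 (0.32, adjusted p = 0.261, limma) and the ubiquitin-like UBD (0.75, adjusted p = 0.154, limma) did not pass.

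**Figure D5:**
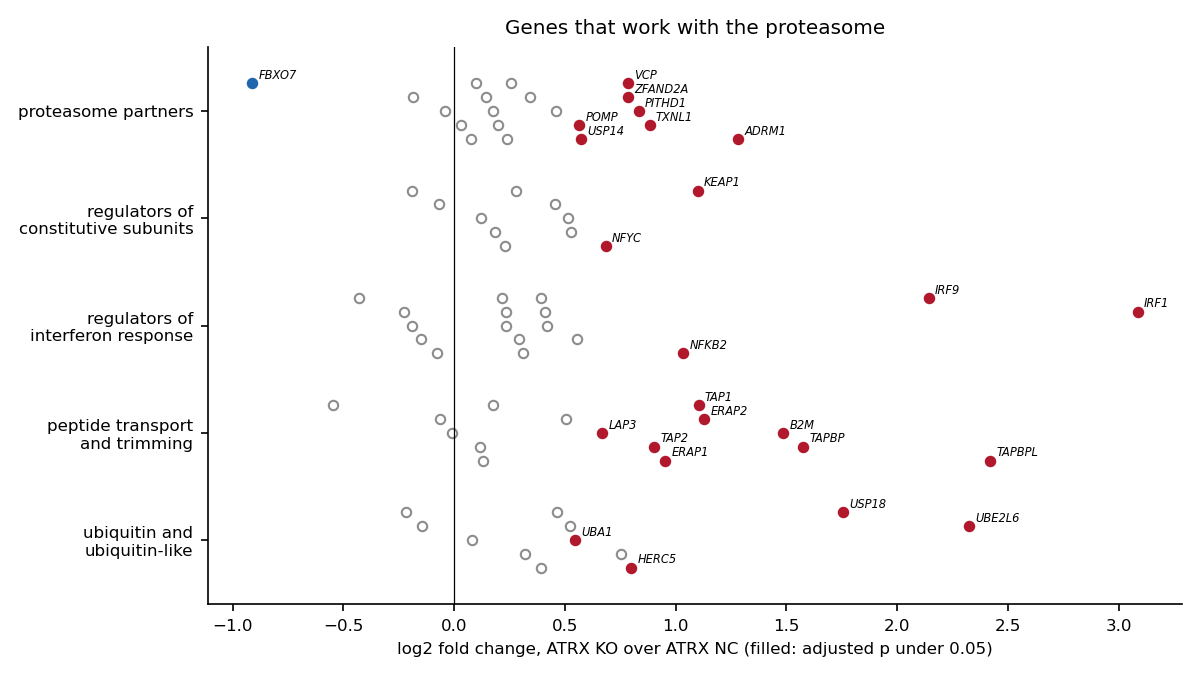
Log2 fold change of ATRX KO over ATRX NC (x axis) for the measured genes of 5 lists that work with or control the proteasome (y axis), where each point is 1 gene and filled points passed at an adjusted p under 0.05. IRF1 stands at 3.09, and among the proteasome partners ADRM1 is the highest at 1.28 and FBXO7 the lowest at -0.91.

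PSMB8 and PSMB9 lie beside both transporter genes in the HLA class II region of chromosome 6. Of the 5 genes with a probe set within 50000 bases of them, 4 rose, the 2 members, TAP1 and TAP2 (0.90, SE 0.18, adjusted p = 0.0186, limma), and HLA-DOB did not pass (-0.55, adjusted p = 0.0991, limma). Of the 9 other genes as close to PSME1 on chromosome 14, IRF9 rose and the other 8 did not pass. Of the 6 around PSMB10 on chromosome 16, none passed by limma, and 1 was higher at an unadjusted p under 0.05 there and in the methods' t-test.

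Several fibroblast markers moved along with these results, and their part in them was not tested. In that list, 5 of 9 genes rose, 55.6% beside 5.79% of all genes tested and 12.7% of those above a level of 10. Its summed level was 12.32 to 12.38 on the ATRX NC arrays and 15.36 to 15.83 on the ATRX KO arrays. LUM made up most of that sum, at 11.65 ± 0.04 (SD, n = 3) and 15.17 ± 0.25 (SD, n = 3). FAP rose by 5.19, LUM by 3.52, DCN by 2.28 and PDGFRB by 1.84. Of the 4 that did not pass, COL1A2 (0.68) and THY1 (0.48) had positive fold changes and COL1A1 (-0.31) and ACTA2 (-0.09) negative ones. For COL1A1, every ATRX KO array lay below every ATRX NC array. In the list of immune and endothelial markers, 2 of 14 rose (CD68 by 3.43 and PECAM1 by 1.52), 14.3% beside 5.79% of all genes tested and 12.7% of those above a level of 10, and NCAM1 fell by 0.79. The PECAM1 call ended without ATRX KO replicate 1 or 3 (adjusted p = 0.0550 and 0.0634, limma) and that of NCAM1 on dropping ATRX KO replicate 1 or 3 or ATRX NC replicate 2 (adjusted p = 0.0535 to 0.0594, limma). CD3E had a fold change of 0.59 and did not pass (adjusted p = 0.0518, limma). The list had summed levels of 11.42 to 11.60 and 11.56 to 11.73, and 7 of the 14 lay below the median level of all genes. The sum was set mainly by NCAM1 on the ATRX NC arrays and by NCAM1 and CD68 on the ATRX KO arrays. NCAM1 averaged 11.02 ± 0.16 (SD, n = 3) and 10.24 ± 0.06 (SD, n = 3). CD68 averaged 6.62 ± 0.29 (SD, n = 3) and 10.05 ± 0.25 (SD, n = 3), so that their opposite changes partly offset each other in the sum. PTPRC, the defining marker of leukocytes, was at 5.80 ± 0.29 (SD, n = 3) and 5.88 ± 0.26 (SD, n = 3), below that median. Gene length also moved with the fold change, with a Spearman's rho of -0.23 across 11346 protein-coding genes above the median level, which are not independent replicates. A trend on length was removed within each array among protein-coding genes alone. There 28 of the 44 proteasome genes were called higher, against 29 in protein-coding genes without that step and 25 in all genes. PSMB8, PSMB9 and PSMB10 had fold changes of 2.11, 1.58 and 1.85 with the trend removed.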

How the data were processed

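mRNA levels were measured on 6 arrays, 3 of ATRX NC and 3 of ATRX KO cells, grouped by the genotype in their labels. The deposited values are log2 intensities, and the methods state that the raw data were normalized by the quantile algorithm of limma. Over all probe sets the array medians were not equal, at 5.28 to 5.31. Neither the background correction nor the probe summary is given in the sources used here. The methods name Agilent arrays, whereas the probe identifiers and labelling kit are Affymetrix. No depth, detection call or background value comes with the values, so the number of arrays limits the precision, and changes of dim genes may be compressed.

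Of 135748 probe sets, 36176 carried 1 symbol in the platform annotation, and 25516 of these were updated through Entrez numbers to RefSeq (GRCh38.p14). Groups were compared in R 4.3.3 with limma 3.58.1 (lmFit, eBayes), with p-values adjusted by Benjamini-Hochberg over 33616 genes, and the script was tested on simulated data. Pairs of subunits were compared by exact permutation with SciPy 1.17.1. The alternatives began with 3 scalings (quantile normalization again, cyclic loess and median centring). Others took genes whose higher group mean lay above the median level, the mean of a gene's probe sets, or protein-coding genes alone. Further ones were removal of a length trend among protein-coding genes and a block by replicate number. A robust fit with a variance trend (statmod 1.5.0), the methods' t-test and the loss of each array completed them.

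The members, gene lists and tests were chosen with earlier results of these data known. Named are all members, up to 4 genes of each further list with the smallest p, and IRF1, TAP1, NFE2L1, POMP and ATRX. Values on every array are given for the inducible subunits, their counterparts and the 12 other members that passed with the smallest p. TAP2, TPP2, HLA-DOB, IFNB1, IFNG, ISG15, UBD, VIM, GFAP, OLIG2, PTPRC, COL1A1, COL1A2, THY1, ACTA2 and the pseudogenes were named after their values were seen.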

Additional observations from a re-analysis of the deposited data

How the results depend on the processing

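The rises of PSMB8, PSMB9 and PSMB10 passed in all 16 alternatives. That of genes above the median level held PSMB10 only through ATRX KO, where it was high, and adds no support for it. PSME1 kept its direction but did not pass after quantile normalization again (0.54), median centring (0.52), cyclic loess (0.53) or with the replicate block (0.62), or without any 1 array (0.57 to 0.67), each on the log2 scale, and the cause was not tested. Of 44 proteasome genes, 14 to 17 were called higher and 0 to 1 lower on leaving out 1 array, against 25 and 1. The replicate block gave 16 higher and 0 lower, and with it 1255 and 804 of all genes. Same-numbered arrays of both groups shared no deviation (r of -0.02, -0.04 and -0.004), so the numbers do not pair the samples. The count of lower proteasome genes was 2 among genes above the median level, among protein-coding genes and in the robust fit with a variance trend, and 0 with the mean over probe sets and by the methods' t-test. Over all genes, higher and lower calls numbered 3136 and 1949 among genes above the median level, 3207 and 1934 in the robust fit, 1224 and 771 by the methods' t-test, and 1037 to 1354 and 739 to 836 on leaving out 1 array. For single genes, 1000 values under alternatives stayed on the same side of the threshold, 145 lost and 37 gained a call, and 0 reversed. The gain of each pair of subunits in ATRX KO kept its sign in the alternatives run for pairs. These were quantile normalization again, cyclic loess, the mean over probe sets, removal of the length trend and the loss of each array. No paired analysis was possible for PSME2, which has no value of its own. The table holds no signal over background, so how far dim genes such as PSMB10 are compressed could not be measured.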

Other observations

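Processed pseudogenes of the proteasome genes carry near-copies of the coding sequence, so their probes may read transcripts of the parent gene. Of 31 such pseudogenes with a probe set, 7 were called higher in ATRX KO cells and 1 lower, with a median log2 fold change of 0.49. The share called higher was 22.6%, beside 5.79% of all genes tested. Below the median level of all genes lay 18 of the 31. PSMA6P1 and PSMA6P2 rose by 1.16 and 1.20 (adjusted p = 0.00328 and 0.00157, limma), and their parent PSMA6 by 0.85. PSMC1P5 rose by 0.79 and PSMC1P9 by 0.94, and their parent PSMC1 by 0.63. PSMA7P fell by 0.77 (adjusted p = 0.0161, limma) from a dim level of 4.52, whereas PSMA7 itself had a fold change of 0.48 that did not pass. How much signal of a parent gene reaches a pseudogene's probes, or the reverse, was not tested.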
